A study of Mus musculus with 4 samples.

Results

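Conventional type 1 dendritic cells (cDC1) of the mouse renal capsule, the connective tissue sheath around the kidney, were taken as the barcodes that carried transcripts of Xcr1 and Clec9a together with MHC class II transcripts. A barcode was a member with at least 2 UMIs (unique molecular identifiers, each standing for 1 captured transcript) of Xcr1 and Clec9a together and at least 5 of H2-Aa and H2-Ab1 together. It also needed fewer than 6 UMIs of C1qa, C1qb and C1qc together and 0 UMIs of Cd79a and of Cd3e. The members were thus chosen by their UMI counts of these 9 genes, which are a description here and not a finding. This rule found 603 cDC1 among the 37361 kept barcodes of 39436 deposited. They were 98 and 86 cells in young replicates 1 and 2, and 155 and 264 cells in aged replicates 1 and 2. The whole capsules of young and aged mice had been digested with an enzyme blend and DNase and made into droplet 3' libraries, with no treatment and no sort. The labels used here state no age in months, no strain or sex, and no number of mice per library. The libraries of 1 age may therefore be technical replicates, and each p-value reflects just how far the 4 libraries scatter.

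cDC1 are a lineage of dendritic cells that depends on the transcription factors IRF8 and BATF3. They take up material from dead cells, for which CLEC9A is a receptor that binds exposed actin filaments, and present it on MHC class I to CD8 T cells, a route called cross-presentation. XCR1 is the receptor for the chemokine XCL1, which natural killer cells and activated CD8 T cells release. A second lineage, cDC2, marked here by Cd209a, is known mainly for presentation on MHC class II to CD4 T cells. In the kidney both lineages lie among the far more numerous resident macrophages.

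Kept barcodes had a median of 4321 to 7133 UMIs per library, and the members were deeper, with a median of 10051.5 to 13739. The members' summed UMIs were 1092912 and 988073 in the young libraries and 2119843 and 2839449 in the aged libraries. The young sums were the smaller ones, so young levels carry the larger counting error. Of the 603 members, 526 (87.2%) had UMIs of both Xcr1 and Clec9a, 38 of Xcr1 only and 39 of Clec9a only. A group of 53 members sat at exactly 2 UMIs of the pair, and 112 barcodes that met the other conditions sat just outside at 1 UMI. The limit on complement transcripts kept out 94 barcodes, the limit on Cd79a and Cd3e 36, and that on MHC class II 4. 9 members had a barcode sequence that another library also held, and no barcode was a member in more than 1 library.

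The label was checked with genes that the rule did not use. Irf8, the lineage factor (chr8:120736358-120756694, plus strand, GRCm38), stood at 1734 and 1656 CPM (UMIs of the gene per 1000000 UMIs of the gated cells, scaled by TMM) in the young cDC1 and at 1695 and 1733 CPM in the aged cDC1. In the cDC2 of the same libraries it stood at 19.7, 21.2, 7.73 and 43.2 CPM, so no library's cDC1 value came near a cDC2 value. Irf8 UMIs were found in 94.9% and 96.5% of young and 96.1% and 99.2% of aged cDC1. Fibroblasts, which lack the gene, gave 1.94%, 1.43%, 2.38% and 2.60% of cells with an Irf8 UMI. With every cell thinned to 2000 UMIs the cDC1 shares were 93.7%, 90.7%, 96.1% and 93.5%. The barcodes just inside the rule, at 2 UMIs, had Irf8 levels of 920, 1169, 784 and 1274 CPM (unscaled) in young 1, young 2, aged 1 and aged 2, against 411, 435, 157 and 559 CPM in the barcodes just outside it at 1 UMI. Both edges lay below the members as a whole, and the outer edge was the lower in each library. Cd209a, the gene of the cDC2 gate, stood at 531, 170, 856 and 46.3 CPM in the inner edge, against 41.2, 17.2, 51.4 and 10.6 CPM in all members and 1109 to 1266 CPM in the cDC2 gate. In aged replicate 1 the 15 cells of the inner edge held 95 of the members' 109 Cd209a UMIs.

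**Figure D1:**
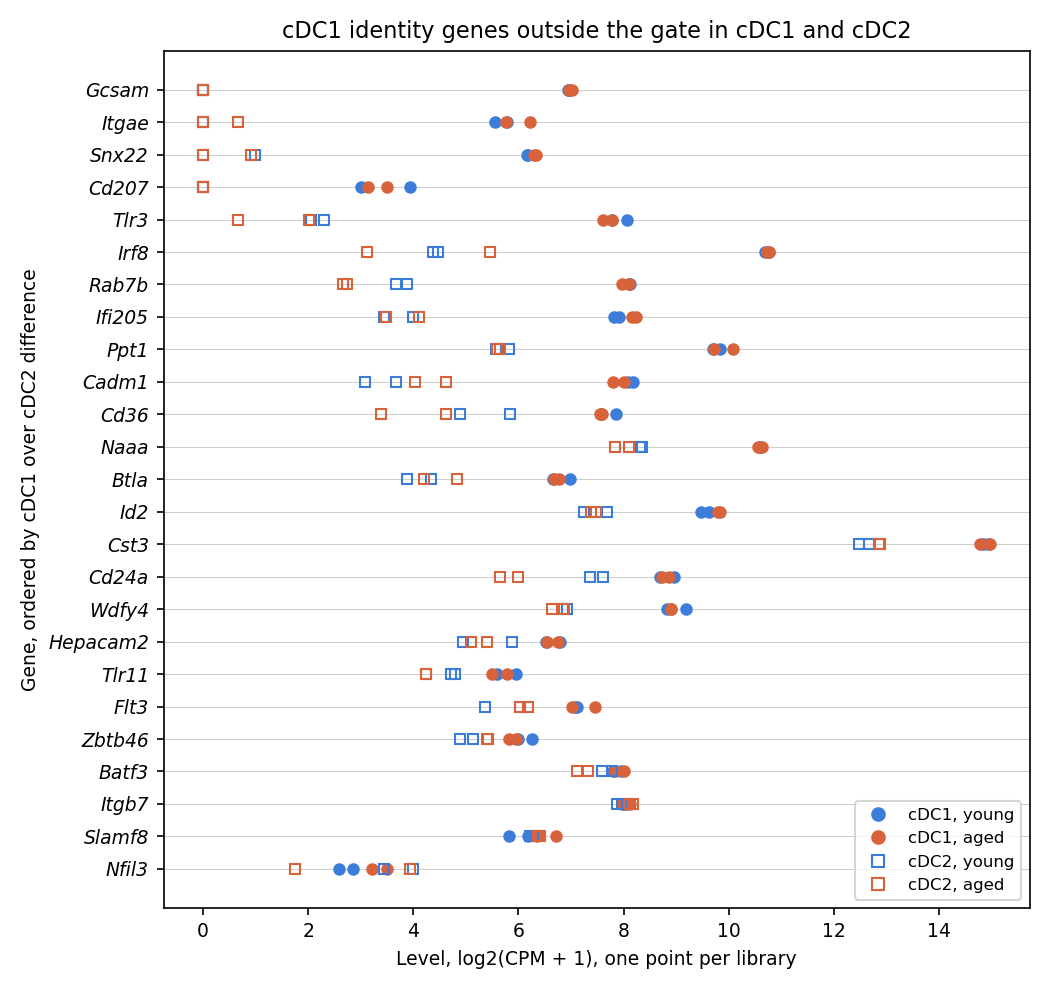
Levels of the 25 tested cDC1 identity genes outside the gate, as log2(CPM + 1), in cDC1 (filled circles) and cDC2 (open squares) of each of the 4 libraries, coloured by age. For 22 genes cDC1 passed the test above cDC2, while Itgb7, Slamf8 and Nfil3 overlap, and young and aged cDC1 points lie close together.

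Genes that accompany cDC1 identity were far higher in these cells than in cDC2. The gates chose both populations by transcripts, so the comparison with cDC2 (731 barcodes) describes the 2 gated populations, and the gate genes were left out of it. Of 9583 genes tested over the 8 sums with library as a block, 2414 (25.2%) differed, with 1142 (11.9%) higher and 1272 (13.3%) lower in cDC1, at an adjusted p under 0.05 (edgeR quasi-likelihood test, Benjamini-Hochberg). On the list of 28 cDC1 identity genes, 25 could be tested, 22 were higher in cDC1 and 0 lower. The median difference was 2.44 on the log2 scale, also with the 2 genes at 0 UMIs in cDC2 set at their lower bound, against -0.01 over all genes tested. Xcr1 and Clec9a belong to the rule, and Plet1, an epithelial and dendritic surface protein, was too low to test.

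Among transcription factors, Irf8 was higher in cDC1 by 6.19 ± 0.26 (SE, log2 scale, adjusted p = 1.98e-07, edgeR, in 4 of 4 libraries). Id2, an inhibitor of E proteins that cDC1 require, stood at 708, 789, 911 and 885 CPM in cDC1 of young 1, young 2, aged 1 and aged 2, and at 204, 152, 178 and 165 CPM in cDC2. Its 4 cDC1 values were all above the 4 cDC2 values. Batf3, the partner of IRF8 in the lineage, was only slightly higher, at 238 ± 16.03 CPM in cDC1 and 177 ± 35.4 CPM in cDC2 (SD, n = 4 libraries; log2 difference 0.46 ± 0.12 SE, edgeR adjusted p = 0.015). Zbtb46, a factor common to conventional dendritic cells, stood at 63.5 ± 8.46 and 36.4 ± 6.32 CPM. Nfil3, which acts early in the lineage, was low in both populations, at 7.50 ± 2.35 and 10.4 ± 5.79 CPM, and did not pass the test.

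Surface and adhesion genes separated the populations further. Itgae, the integrin chain CD103, stood at 45.7, 54.3, 74.0 and 53.0 CPM in cDC1, and cDC2 had 0, 0, 0.595 and 0 CPM. Gcsam, a signalling adaptor best known from germinal centre B cells, stood at 123, 122, 123 and 129 CPM in cDC1 and at 0 UMIs in all 4 cDC2 sums. It was at least 241-fold higher in cDC1, with the floor at 3 counts over the group. Cyp8b1, a sterol hydroxylase of bile acid synthesis, was likewise at 0 UMIs in cDC2 and at least 127-fold higher in cDC1, at 65.1 ± 10.1 CPM. Cadm1, a cell adhesion molecule of cDC1, was 259 ± 28.9 CPM against 14.6 ± 6.85 CPM in cDC2. Cd207, the lectin langerin that marks some tissue cDC1, was low, at 7.04 to 14.3 CPM, with 0 UMIs in cDC2. The sorting nexin Snx22, at 74.6 ± 4.29 CPM, and the nuclease Dnase1l3, at 79.3 ± 17.7 CPM, were at 0.465 ± 0.539 and 1.23 ± 0.574 CPM in cDC2. Treml4, a receptor that amplifies nucleic acid sensing, was 52.2 ± 4.01 against 0.774 ± 0.914 CPM. Across all 16 gates, mean Irf8, Itgae, Cadm1, Tlr3, Wdfy4, Naaa and Ppt1 were highest in cDC1. Batf3 was higher in the mature dendritic gate (279 CPM, unscaled mean over libraries) than in cDC1 (234 CPM). Dnase1l3 was also highest in that gate (109 CPM). Treml4, which is on the monocyte marker list, was highest in the monocyte gate (91.5 CPM). The cDC1 levels of Dnase1l3 and Treml4 were 71.4% and 56.3% of these.

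The genes that mark cDC2 were low in the members. Of 18 tested genes on the cDC2 list, 17 were lower in cDC1 and 0 higher (median log2 difference -3.68). Clec10a, a lectin of cDC2 and macrophages, stood at 12.5, 18.1, 40.2 and 7.78 CPM in cDC1 and at 592, 547, 593 and 653 CPM in cDC2. Mgl2, its paralog, stood at 94.1, 26.1, 56.8 and 17.4 CPM against 874, 1074, 1329 and 1264 CPM. Itgam, the integrin chain CD11b, was 8.18 ± 3.02 CPM in cDC1 and 204 ± 34.1 CPM in cDC2 (SD, n = 4). S100a4, a calcium-binding protein, was 49.4 ± 35.5 CPM against 1205 ± 332 CPM, with aged replicate 1 highest among the cDC1 at 102 CPM. Mcemp1, Ms4a4c, Clec4a1 and the chemokine receptor gene Ccr1 were also lower in cDC1, with log2 differences of -4.95, -4.78, -4.56 and -4.82. Of the markers of other cells, the summed natural killer list lay between 0.915 and 15.5 CPM in the members and the neutrophil list between 1.89 and 8.23 CPM. The T cell list lay between 7.08 and 100 CPM. The macrophage list lay between 475 and 673 CPM, which is 1.08% of its level in the macrophage gate, whose C1q genes the rule limits in cDC1. The monocyte list, which holds Ccr2 and Treml4, was higher, between 767 and 1069 CPM, with 9 of its 11 genes over 10 CPM. That was 16.5% of its level in the monocyte gate, the largest such share of any list.

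Antigen presentation split by route. Of 26 tested genes of MHC class I presentation and cross-presentation, 12 were higher in cDC1 and 3 lower. Over all genes tested, 11.9% were higher and 13.3% lower. Psmb9, an immunoproteasome subunit, stood at 825, 890, 744 and 980 CPM in cDC1 and at 164, 191, 291 and 256 CPM in cDC2, with no overlap. The transporter genes Tap1 (log2 difference 1.26 ± 0.09 SE) and Tap2 (1.07 ± 0.11), the proteasome activator Psme1 (1.17 ± 0.07) and the small GTPase gene Rab43 (1.15 ± 0.15), whose product is known from cross-presentation, were higher in cDC1 in 4 of 4 libraries. The 3 genes that were lower were the class I heavy chains H2-K1 (-0.19 ± 0.06) and H2-D1 (-0.32 ± 0.05) and the NADPH oxidase subunit Cybb (-4.29 ± 0.11). Of 12 tested class II genes other than those of the gate, 1 was higher and 8 lower in cDC1. Cd74, the invariant chain, was 19836 ± 1630 CPM in cDC1 and 27623 ± 3677 CPM in cDC2. The lysosomal protease Ctss and the thiol reductase Ifi30, which prepare class II peptides, were lower in cDC1 by 1.47 ± 0.07 and 1.46 ± 0.09 on the log2 scale. H2-Ob, a chain of the class II peptide-loading inhibitor H2-O, was the 1 class II gene that was higher, at 156 ± 13.3 against 95.8 ± 8.39 CPM. On the lysosome list 4 of 23 were higher and 13 lower. The 4 were Cst3, which encodes the protease inhibitor cystatin C, the thioesterase gene Ppt1, the amidase gene Naaa and the saposin precursor gene Psap, while the cathepsin genes Ctsb, Ctsc, Ctsd, Ctsh, Ctss and Ctsz were lower.

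Sensors, receptors and secreted factors followed. Tlr3, the sensor of double-stranded RNA, stood at 268, 218, 218 and 193 CPM in cDC1 and at 3.94, 3.18, 0.595 and 3.06 CPM in cDC2. Tlr11 and Tlr12, sensors of a protozoan protein, were also higher in cDC1, at 51.5 ± 7.49 and 18.1 ± 3.73 CPM against 21.95 ± 4.73 and 0.679 ± 1.00 CPM. These were the 3 of 16 tested innate sensors that were higher, and 4 were lower. The counts of this and the following lists stand beside 11.9% higher and 13.3% lower over all genes tested. Among 19 growth factor and homing receptors, 5 were higher and 9 lower, with Ccr1 the lowest (log2 difference -4.82). Flt3, the receptor for the growth factor of dendritic cells, was 144 ± 21.3 CPM against 60.2 ± 13.8 CPM, and Kit 66.5 ± 11.4 CPM against 9.90 ± 6.32 CPM. Cxcr3, a receptor for interferon-induced chemokines, was 112 ± 13.9 CPM against 5.91 ± 2.01 CPM. Of 19 tested cytokines and chemokines, 3 were higher in cDC1 and 10 lower (median log2 difference -0.89). Cxcl9, a ligand of CXCR3, stood at 73.5, 211, 205 and 273 CPM in cDC1 and at 4.93, 53.0, 93.4 and 24.9 CPM in cDC2. Young replicate 1 was the lowest in both. Of 9 tested inhibitory ligands and receptors, 3 were higher in cDC1 and 5 lower (median log2 difference -0.70). Havcr2 (89.2 ± 7.27 against 24.9 ± 5.29 CPM) and Btla (109 ± 11.2 against 19.4 ± 5.74 CPM) were among the higher ones. On the list for uptake of dead cells, 3 of 11 tested genes were higher in cDC1 and 3 lower (median log2 difference -0.37). Cd36 and Timd4, which bind lipids on dying cells, were among the higher ones and the kinase receptor gene Axl among the lower ones. Xcl1, the ligand of XCR1, had its highest level in the natural killer gate (1601 CPM, unscaled mean of 4 libraries), followed by the T cell gate (351 CPM), and stood at 5.61 CPM in cDC1.

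The share of cDC1 among all kept barcodes was higher in the aged capsules, while the ages overlapped in their share among dendritic cells. cDC1 made up 1.09% and 0.892% of the kept barcodes of young replicates 1 and 2 and 2.29% and 2.20% of those of aged replicates 1 and 2. Both aged values lay above both young values. The mean went from 0.991 ± 0.140% to 2.25 ± 0.0615% (SD, n = 2), a log2 ratio of 1.18 ± 0.23 SE (edgeR on barcodes per class, adjusted p = 0.0002), and an exact permutation of 2 against 2 cannot go below its p of 0.333. Shares of 1 suspension depend on each other, and 12 of the 17 classes (70.6%) passed this test. Among the 3 dendritic gates, cDC1 were 42.6% and 42.2% in young and 43.8% and 40.4% in aged libraries, and the ages overlapped (log2 ratio -0.03 ± 0.14 SE, edgeR adjusted p = 0.846). Among the 11 immune gates they were 2.66% and 2.18% against 3.26% and 3.20% (log2 ratio 0.42 ± 0.24 SE, adjusted p = 0.122). Outside the T, B and plasma cell gates the log2 ratio was 1.77 ± 0.18 SE (edgeR adjusted p = 0.000977), and with TMM scaling over the classes it was 0.69 ± 0.22 SE (adjusted p = 0.0152). The cDC2 gate had a log2 ratio of 1.07 and the mature dendritic gate one of 2.30. Shares of recovered barcodes do not tell more cDC1 in the tissue apart from fewer other cells, and the fibroblast, mesothelial and tubule gates took smaller shares in aged libraries (log2 ratios -1.27, -1.60 and -2.09).

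**Figure D2:**
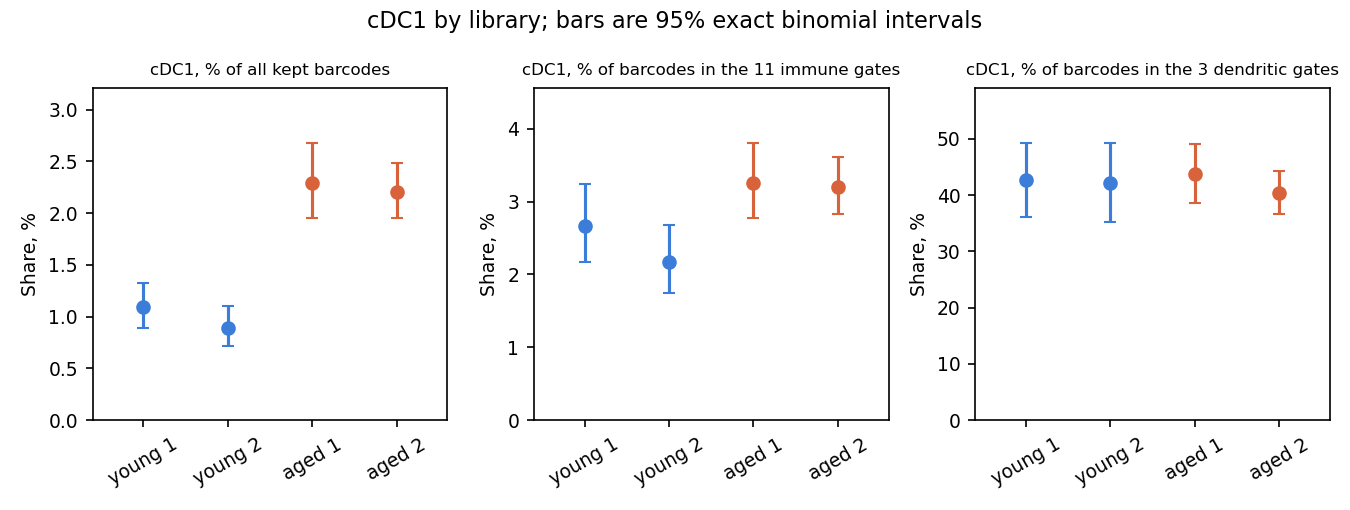
cDC1 as a percentage of all kept barcodes, of the 11 immune gates and of the 3 dendritic gates, 1 point per library with its 95% exact binomial interval, which covers counting error only. The aged libraries (2.29% and 2.20%) lie above the young (1.09% and 0.892%) in the left panel, and the 4 libraries lie between 40.4% and 43.8% in the right panel.

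Genes of cDC1 identity did not pass the test between ages. In a test of 8984 genes on the 4 cDC1 sums, 76 (0.846%) rose and 157 (1.75%) fell in aged over young cDC1 at an adjusted p under 0.05 (edgeR). The count of 233 (2.59%) went to 415 without young replicate 1 and to 375 without aged replicate 1. Of the 25 identity genes tested 0 passed by edgeR and 0 by DESeq2, and 3 had an unadjusted p under 0.05. Their median difference was 0.00 on the log2 scale, the same as over all genes tested. The largest rise among them was that of Nfil3, 0.73 (adjusted p = 0.626), and the largest fall that of Zbtb46, -0.25 (adjusted p = 0.713). Irf8 differed by 0.02 ± 0.09 SE and Cst3, the most abundant of them, by 0.01. Plet1, untested here, passed when young replicate 2 or aged replicate 1 was left out or low counts were not filtered. Of 26 tested genes of MHC class I presentation, 14 innate sensors and 29 interferon response genes, 0 passed by edgeR or by DESeq2, and 2, 0 and 0 had an unadjusted p under 0.05.

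The genes of cytosolic ribosomal proteins rose together in aged cDC1. On a list of 31, all of them tested, 18 rose and 0 fell, with a median of 0.36, against 0.00 over all genes tested. Rps7 stood at 1552 and 1776 CPM in young and at 2649 and 2366 CPM in aged cDC1, a rise of 0.59 ± 0.10 SE on the log2 scale (edgeR adjusted p = 0.0051). Rpl13 stood at 3402 and 3379 CPM in young and 4965 and 4721 CPM in aged cDC1. In both genes the 2 aged values lay above the 2 young ones. In cDC2 of the same libraries, where 113 of 8668 genes changed (1.3%) and 65 rose (0.75%), 18 of the 31 rose as well, with a median of 0.48. Without young replicate 1, and likewise without young replicate 2, 5 of the 31 rose in cDC1, and 10 rose in the fit of cDC1 and cDC2 together, with medians between 0.36 and 0.38.

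Mitochondrially encoded transcripts fell. Of 13 tested genes of the mitochondrial genome, all of which encode subunits of respiratory complexes or of the ATP synthase, 8 fell and 0 rose, with a median of -0.83. mt-Nd4, a complex I subunit, stood at 1424 and 1836 CPM in young and at 648 and 607 CPM in aged cDC1 (log2 difference -1.38 ± 0.12 SE, edgeR adjusted p = 4.45e-05). mt-Cytb, of complex III, stood at 2608 and 4237 CPM in young and 1572 and 1632 CPM in aged cDC1. The ages did not overlap for either gene, and young replicate 2 was the highest for both. In that library 1 member held 4013 of the 11849 UMIs of the list, and 1 member of young replicate 1 held 1140 of 9944. The most in any aged member was 210. The median member had 81.5 and 78 such UMIs in young and 57 and 43 in aged cDC1. Without young replicate 2, 6 of the 13 fell. DESeq2 called 7 and did not call mt-Cytb (adjusted p = 0.0999). Of 29 tested nuclear genes of oxidative phosphorylation 0 passed by edgeR or DESeq2, and 1 had an unadjusted p under 0.05. In cDC2, where 48 of 8668 genes fell (0.554%), 6 of the 13 fell. The members' median share of mitochondrial UMIs was 2.09% in each young library and 1.24% and 1.19% in the aged libraries, and its part in these values was not tested.

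**Figure D3:**
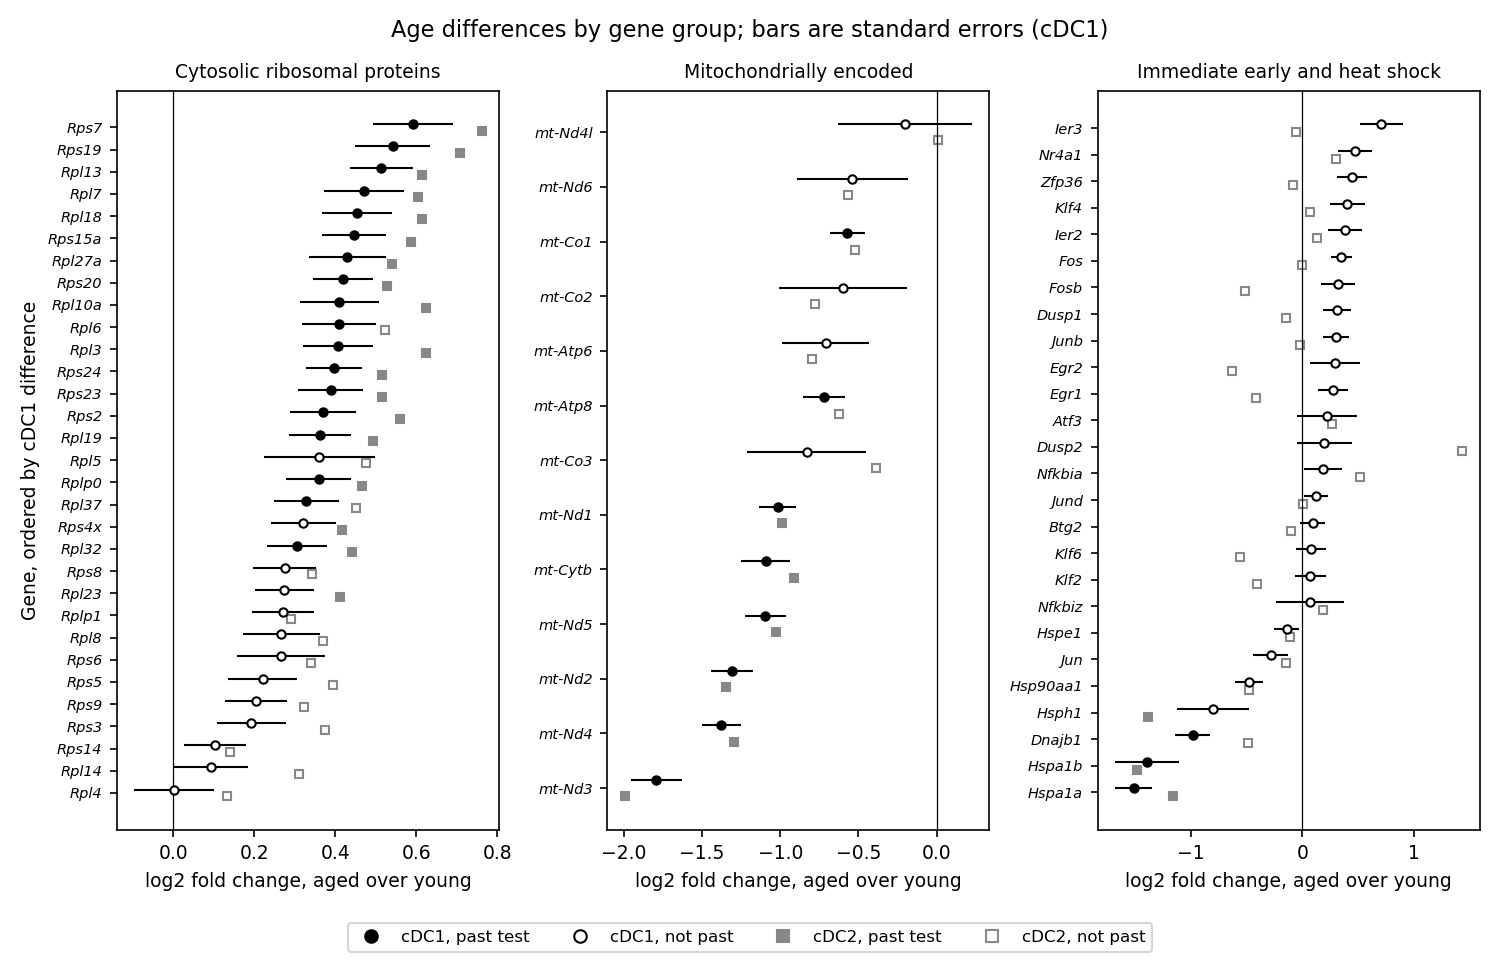
Log2 fold changes, aged over young, of 31 ribosomal protein genes, 13 mitochondrially encoded genes and 26 immediate early and heat shock genes in cDC1 (circles with standard errors) and cDC2 (squares); filled symbols passed the test. Ribosomal protein genes lie to the right of 0 with 18 filled circles, mitochondrial genes to the left with 8, and in the right panel Hspa1a, Hspa1b and Dnajb1 are the filled circles.

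A few heat shock genes also fell. On the list of 26 immediate early and dissociation genes 3 fell and 0 rose, while 19 had a positive difference and the list's median was 0.19. An unadjusted p under 0.05 was found for 13 (edgeR). With low counts not filtered 6 rose and 3 fell, and with the replicate block 1 rose and 4 fell. The 3 that fell in the main fit were Hspa1a and Hspa1b, the inducible forms of the chaperone HSP70, and Dnajb1, its cochaperone of the HSP40 family. Hspa1a stood at 518 and 411 CPM in young and at 187 and 139 CPM in aged cDC1, a difference of -1.52 ± 0.17 SE on the log2 scale (edgeR adjusted p = 0.0002). Hspa1b stood at 257 and 182 CPM against 119 and 51.2 CPM (-1.40 ± 0.29 SE), and Dnajb1 at 143 and 125 CPM against 69.9 and 65.5 CPM (-0.99 ± 0.16 SE). The young values exceeded the aged values in all 3 genes without overlap. In cDC2 Hspa1a and Hspa1b fell too (-1.16 and -1.49, edgeR adjusted p = 0.0106 and 0.0476), while Dnajb1 was at -0.49 (adjusted p = 0.203). DESeq2 did not call Hspa1b (adjusted p = 0.778), nor did the fit of cDC1 and cDC2 together (0.2). Fos, a rapidly induced transcription factor gene, stood at 2060 and 2376 CPM in young and 2911 and 2741 CPM in aged cDC1 (adjusted p = 0.074). Of 18 genes on a separate list of other heat shock and unfolded protein response genes 0 passed by edgeR or DESeq2, and 0 had an unadjusted p under 0.05 (median 0.04).

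Hspa1a and Hspa1b are near-identical neighbours on chromosome 17, so the split of reads between them is uncertain. Their promoters are shown because both genes fell and both hold a match to the core of the heat shock element, the sequence that heat shock factors bind. The 250 bases before each start (RefSeq, GRCm38.p6, minus strand) are chr17:34972157-34972406 for Hspa1a and chr17:34959239-34959488 for Hspa1b. Capitals mark matches to GAANNTTC, an inverted repeat, which is its own reverse complement and so covers both strands.
Hspa1a: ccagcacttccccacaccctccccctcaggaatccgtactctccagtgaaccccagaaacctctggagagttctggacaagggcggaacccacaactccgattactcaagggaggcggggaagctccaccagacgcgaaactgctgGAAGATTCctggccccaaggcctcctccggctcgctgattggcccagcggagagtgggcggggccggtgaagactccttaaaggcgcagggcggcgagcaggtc
Hspa1b: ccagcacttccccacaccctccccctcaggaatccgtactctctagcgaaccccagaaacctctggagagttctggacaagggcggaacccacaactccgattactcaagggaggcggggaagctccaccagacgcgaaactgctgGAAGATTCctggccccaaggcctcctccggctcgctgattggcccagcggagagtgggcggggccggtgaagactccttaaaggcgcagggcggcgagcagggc
Each promoter held 1 match, and 247 of their 250 positions were identical (98.8%). A match was held by 2199 of the 32851 promoters of this length (6.69%). A match is a description of the letters and not evidence that a factor was bound.

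Other genes at a level of at least 10% of that in the highest other gate also differed. The calcium-binding protein gene Cpne8 (log2 difference 1.74) and Yrdc (1.07), an enzyme of transfer RNA modification, were the largest rises among those named. Tmsb10, an actin-sequestering peptide, stood at 4757 and 4405 CPM in young and 6587 and 6563 CPM in aged cDC1 (0.52 ± 0.07 SE, edgeR adjusted p = 0.0016), and it rose in cDC2 by 0.47. Gadd45b, a stress-induced signalling gene, stood at 89.9 and 133 CPM in young and 203 and 204 CPM in aged cDC1 (0.88 ± 0.17 SE, adjusted p = 0.0146, edgeR), and it no longer passed without young replicate 1 (adjusted p = 0.138), in the fit with cDC2 (0.139) or with at least 3 UMIs of Xcr1 and Clec9a required (0.058). The level of Gadd45b was 10.02% of that in the mature dendritic gate, just over the limit. Of 12 tested class II genes 1 rose, while 9 had a positive difference and 7 an unadjusted p under 0.05 (edgeR, median 0.22). In cDC2, where 0.75% of all tested genes rose, 5 of the 12 rose and 12 of 12 were positive (median 0.37). The 1 that rose in cDC1 was H2-Oa, the other chain of H2-O. It stood at 115 and 118 CPM in young against 179 and 189 CPM in aged cDC1 (0.67 ± 0.15 SE). H2-Oa did not pass without young replicate 1, young replicate 2 or aged replicate 2 (edgeR adjusted p = 0.116, 0.119 and 0.0599) or by DESeq2 (0.101). It also missed the threshold with members of high doublet score left out (0.0923), without cycling members (0.0589), in the fit with cDC2 (0.0858) and when only genes at or above that 10% level were tested (0.0577). For Tmsb10, Gadd45b and H2-Oa the aged values lay above the young ones. Mcm2, a subunit of the replicative helicase, fell from 34.4 and 38.6 CPM to 14.0 and 18.7 CPM and was the 1 of 30 cell cycle genes that changed. It did not pass with cycling members left out (edgeR adjusted p = 0.677) or without young replicate 2 (0.0769), in the fit with cDC2 (0.169), among genes at or above the 10% level (0.0752) or by DESeq2 (0.37). With sums thinned to 1 depth its difference was -0.63 (edgeR adjusted p = 0.446).

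The largest age differences were mostly in genes with a far higher level in another gate. A level under 10% of that in the highest other gate was found for 923 (10.3%) of the genes tested, for 22 of the 76 that rose and for 120 of the 157 that fell. Among the 54 rises and 37 falls at or above that level, 43 rises were of ribosomal protein genes (84 tested by name) and 10 falls were mitochondrial. Slpi, a secreted protease inhibitor abundant in the mesothelial gate, stood at 373 and 187 CPM in young and at 1.93 and 1.83 CPM in aged cDC1, which is 0.83% of its level in that gate. Upk3b and Krt19, mesothelial genes, had 60 and 52 UMIs in young and 0 in aged cDC1, at least 47.9-fold and 41.6-fold lower in aged. Col1a1, the main fibrillar collagen gene of fibroblasts, stood at 250 and 605 CPM in young and 51.1 and 41.7 CPM in aged cDC1. Kap, a kidney tubule gene, stood at 114 and 1711 CPM against 0.964 and 12.1 CPM. Other tubule genes among the largest falls included Miox, Acsm2, Slc34a1, Akr1c21, Fxyd2 and Cyp4b1, with log2 differences from -7.58 to -4.19. In the other direction Plvap, an endothelial gene, stood at 0 and 0.99 CPM in young and 33.3 and 68.0 CPM in aged cDC1. The endothelial genes Ptprb (3.76), Egfl7 (3.68), Eng (1.96) and Flt1 (1.90) rose as well, each under that level. Also under it, Apod (2.22) was highest in the fibroblast gate, Gngt2 (2.59) and Ms4a6c (1.18) in the monocyte gate, and AW112010 (1.04) in the natural killer gate. That level alone does not assign a transcript to another cell type. Gngt2 and Ms4a6c also rose in cDC2 (1.32 and 0.85, edgeR adjusted p = 0.0223 and 0.0253). AW112010 was higher in cDC1 than in cDC2 in 4 of 4 libraries (0.75, edgeR adjusted p = 0.0002). Igkc, the kappa light chain, stood at 0.881 and 3.96 CPM against 103 and 184 CPM, which is 0.017% of its level in plasma cells.

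Marker lists of these cells were summed in the members, and their part in the differences was not tested. The summed fibroblast list stood at 4596 and 6457 CPM in young and 2078 and 1995 CPM in aged cDC1, with 9 of 9 genes above 10 CPM, and the tubule list at 470, 2929, 131 and 110 CPM. The mesothelial list stood at 84.2, 80.0, 2.83 and 1.41 CPM and the endothelial list at 34.8, 186, 158 and 556 CPM. The ages did not overlap for the fibroblast, tubule and mesothelial lists and overlapped for the endothelial list, and Apod rose while the fibroblast list was lower in aged cDC1. Members with the highest doublet scores, 9, 9, 17 and 35 cells in young 1, young 2, aged 1 and aged 2, held 88.6%, 89.4%, 71.2% and 78.4% of the fibroblast list's UMIs and 99.3% and 99.5% of the young Slpi UMIs. A single member held 1679 of the 1729 Kap UMIs in young replicate 2. Igkc was spread wider, over 111 of 155 and 221 of 264 aged members. With the members of high doublet score left out, 78 genes passed in place of 233, and 75 of them were among the 233. Col1a1 was then at 21.8, 40.01, 19.7 and 2.54 CPM (unscaled) and no longer passed (edgeR adjusted p = 0.427), and Dcn, a fibroblast proteoglycan gene that had fallen by 0.54, rose by 1.33 (edgeR adjusted p = 0.000807). The falls of Hspa1a (-1.66), Dnajb1 (-1.40) and mt-Nd4 (-1.45) and the rise of Tmsb10 (0.51) passed in that setting, and 12 of the 31 ribosomal protein genes rose.

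**Figure D4:**
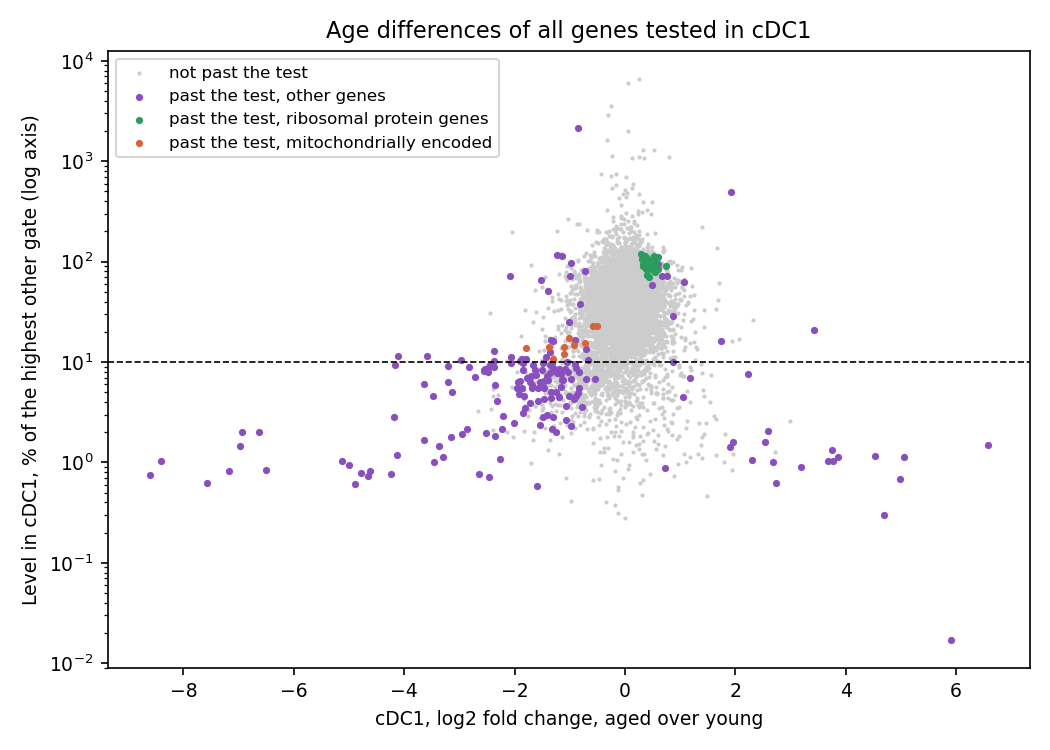
Each of the tested genes by its log2 fold change in cDC1, aged over young (x axis), and its level in cDC1 as a percentage of the highest other gate (y axis, log scale; dashed line at 10%). Genes with the largest changes in either direction lie mostly below the line, while ribosomal protein genes (green) and mitochondrially encoded genes (orange) lie above it within 2 log2 units of 0.

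The age difference itself was tested against that in cDC2 and was rarely found to differ. Of 9583 genes, 4 (0.0417%) passed for a difference of the age differences (edgeR adjusted p under 0.05), 2 in each direction (0.0209% higher and 0.0209% lower in cDC1 relative to cDC2). Cd24a, a surface glycoprotein that marks cDC1 and neutrophils, stood at 498, 412, 467 and 425 CPM in cDC1 and at 195, 163, 62.5 and 49.4 CPM in cDC2. Its level overlapped between ages in cDC1 and was lower in both aged libraries in cDC2, a difference of 1.66 ± 0.15 SE on the log2 scale (adjusted p = 0.0403). Lyz1, a lysozyme gene, showed the same order, at 36.8, 25.1, 26.0 and 30.4 CPM in cDC1 and at 270, 187, 47.6 and 49.4 CPM in cDC2 (2.10 ± 0.22 SE, adjusted p = 0.0458). The other genes were Slpi, described above, and Hpgd, a prostaglandin-degrading enzyme whose cDC1 level was 45.7, 52.3, 18.1 and 19.6 CPM. Retnla, a secreted resistin-like protein gene (1.10, adjusted p = 0.343), and Psap (0.45, adjusted p = 0.363) came next in order of p and did not pass. Without young replicate 1 all 4 lost the call (adjusted p = 0.175 for each), and without young replicate 2 as well (0.163 to 0.226). No gene of the ribosomal protein or mitochondrially encoded lists passed this test (lowest edgeR adjusted p = 0.896). Of the 31 ribosomal protein genes 0 had a positive value (median -0.15), so their rise was the larger in cDC2. The median over all genes was -0.02. Of the 13 mitochondrially encoded genes 4 were positive (median -0.07). Neither list was tested as a whole.

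Cells with cell cycle transcripts were more common among cDC1 than among cDC2 before depth was equalised. A cell was counted as cycling with at least 2 UMIs of Mki67, Top2a, Cdk1, Birc5 and Ube2c together, which held for 128 of 603 members (21.2%). By library the shares were 26.5%, 18.6%, 18.1% and 21.97% of cDC1, and 12.7%, 14.0%, 17.0% and 10.5% of cDC2 in young 1, young 2, aged 1 and aged 2. cDC1 were higher in 4 of 4 libraries, 21.3 ± 3.90% against 13.5 ± 2.71% (SD, n = 4, exact permutation p = 0.125, two-sided, the smallest that 4 pairs allow). The cDC1 were the deeper cells, and with each cell thinned to 2000 UMIs the shares were 12.2 ± 3.08% and 8.86 ± 1.57%, higher in cDC1 in 3 of 4 libraries (exact p = 0.25). Cycling members had a median of 14188 to 17822 UMIs per library and the others one of 9528.5 to 13215. Young and aged cDC1 overlapped, at 22.6 ± 5.60% and 20.02 ± 2.76% (SD, n = 2, exact p = 0.667). In the summed counts, 3 of 30 cell cycle genes were higher in cDC1 than in cDC2 and 0 lower, namely Hmgb2, Tyms and Hells, a share close to the 11.9% of all genes tested.

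**Figure D5:**
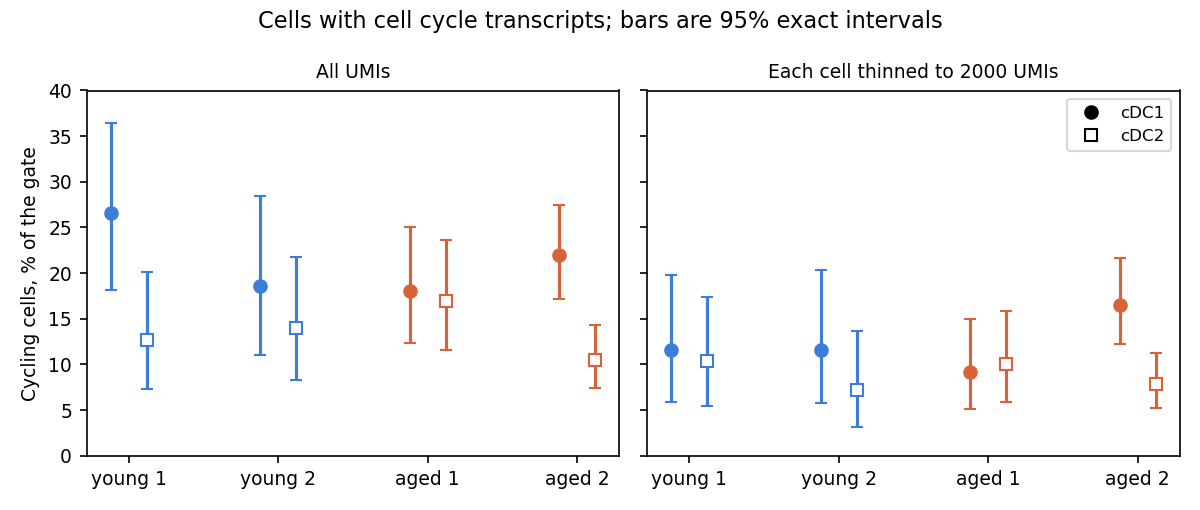
Cells with at least 2 UMIs of the cell cycle genes as a percentage of the cDC1 gate (filled circles) and the cDC2 gate (open squares) in each library, with 95% exact binomial intervals, for all UMIs and for cells thinned to 2000 UMIs. Without thinning cDC1 lie above cDC2 in all 4 libraries, and the intervals overlap in 3 of them.

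Members with maturation transcripts were few. At least 2 UMIs of Ccr7 and Fscn1 together, which guide migration to lymph nodes and bundle actin in mature dendritic cells, were found in 20 of 603 members (3.32%), in 3, 4, 2 and 11 cells of the 4 libraries. In cDC2 the count was 0, 0, 2 and 0, but the order of the gates limits it. The mature dendritic gate, which needs at least 3 UMIs of the same 2 genes, was applied after cDC1 and before cDC2. It could thus take such barcodes from cDC2 and not from cDC1, so the 2 counts cannot be compared. Il12b, the p40 chain of interleukin 12, was seen at 12.5, 3.02, 1.47 and 31.1 CPM in cDC1. It had 0 UMIs in cDC2, which the same order may affect. Ccr7 stood at 2.64 and 29.7 CPM in young and at 0 and 36.2 CPM in aged cDC1, so replicate 2 was the higher library at each age and the ages overlapped. Of 18 tested maturation genes 0 rose and 1 fell between ages. That gene was Ccl17, a chemokine for CCR4, at 146 and 22.8 CPM in young and 2.89 and 6.22 CPM in aged cDC1. A single member held 147 of its 166 UMIs in young replicate 1, and DESeq2 did not call it (adjusted p = 0.0709).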

How the data were processed

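Raw UMI counts per gene and barcode were deposited for 4 libraries as filtered 10x matrices, made by the authors with Cell Ranger on GRCm38 per the file headers (6.0.1) and the submitters' processing notes (6.0.2). No further filter before deposit is recorded in the labels or headers. Barcodes with at least 500 UMIs, 300 genes and at most 20% mitochondrial UMIs were kept. Cells were gated by transcripts, with no clustering, into 16 classes. Counts were summed per library and class and tested with edgeR 4.0.16 (quasi-likelihood, TMM, filterByExpr; R 4.3.3). DESeq2 1.42.0 was the main alternative tool. The groups follow the titles, and the aged against young fits used 2 sums a group. cDC1 and cDC2 were compared with library as a block. The 9 gate genes were left out of tests. Doublets were kept, and the barcodes with the highest Scrublet scores (0.8% of a library for each 1000 of its barcodes) were left out as an alternative.

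The members, the gene lists and the tests were chosen with earlier results of these data known. Genes named with age were the 12 largest rises and falls past the threshold whose ages did not overlap, with a mean of at least 20 CPM in 1 age. Those named against cDC2 were the 8 largest each way with at least 50 CPM in 1 class, and for the difference of age differences the 6 of smallest p. Gene models named Gm or Rik, immunoglobulin, mt- and sex-linked genes and the rule's genes were left out of this ranking. Members of the lists were named as examples of their list, and Xcl1 only as the ligand of XCR1. Some genes that the rule takes are not reported here. Intervals are 95% exact binomial intervals and, like the floor of 3 counts, cover counting error only. Between replicates, chi-square over degrees of freedom of the sums was 2.20 (young) and 3.55 (aged), so the 2 libraries of an age were not copies of each other. This value does not tell technical replicates from separate mice. Alternatives covered low-count filters, scaling, gate limits, doublets, depth, free RNA, the replicate block and leaving out each library.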

Additional observations from a re-analysis of the deposited data

Results flagged for a closer look

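For 4 genes the difference between aged and young differed between cDC1 and cDC2 by edgeR's interaction test, given here as the cDC1 difference minus the cDC2 difference on the log2 scale. For Cd24a it was 1.66 (adjusted p = 0.0403), with a cDC1 level that overlapped between ages and an age difference of -1.71 in cDC2. With members of high doublet score left out it was 1.54 (adjusted p = 0.0203). For Lyz1 it was 2.10 (adjusted p = 0.0458), and its cDC1 level was 4.19% of that in the type 2 innate lymphoid gate. For Slpi it was -6.37 (adjusted p = 0.0458), and 5 of 98 and 3 of 86 young members carried its UMIs. For Hpgd it was -1.96 (adjusted p = 0.0458), with 78.4% and 82.7% of its young UMIs in members of high doublet score and -0.91 (adjusted p = 0.725) without them. DESeq2 called Cd24a and Slpi only. What underlies these differences was not tested.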

How the results depend on the processing

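The share of cDC1 among kept barcodes kept its direction and its call under other gate limits, thinning, doublet removal and each left-out library (log2 ratio 1.04 to 1.33), and at 0.69 under TMM scaling. It did not pass over the immune gates (0.42) and was -0.0281 over the dendritic gates. The 233 genes that differed with age became 117 by DESeq2, 565 with no filter, 78 with doublets removed, 56 over the free RNA limit, 55 in the fit of cDC1 and cDC2 together, and 212 to 415 without 1 library. The 2414 genes that differed between cDC1 and cDC2 became 1510 by DESeq2. The 4 genes whose age difference differed became 2 by DESeq2, 78 with no filter, 10 with doublets removed, and 1 to 33 without 1 library. Dcn (1.33) and Gas6 (0.10) reversed with doublets removed. Of 76 named age results, 46 kept their call by DESeq2 and 30 lost it, and all 33 named differences from cDC2 kept theirs. The cause of these changes was not tested, except that the free RNA limit tests fewer genes. With 86 to 264 members a library, low genes were limited by depth.

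Same-numbered libraries did not deviate together clearly, so the numbers were not taken as a pairing. The deviations of young 1 and aged 1 from the mean of their age had a correlation of 0.0980 over 8996 genes. With the replicate block, the share's log2 ratio was 1.19, the age count was 278, and 3 genes had an age difference that differed.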

Other observations

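Other lists held genes that differed between cDC1 and cDC2, beside 11.9% higher and 13.3% lower over all genes tested. On the list of actin and adhesion genes, 5 of 20 were higher in cDC1 and 3 lower. Tmsb10 was 5663 CPM in cDC1 and 2689 CPM in cDC2 (means of 4 libraries, TMM-scaled), while Itgax, the integrin chain CD11c, was 46.5 against 108 CPM. On the list of senescence and cell death genes 4 of 17 were higher and 8 lower. Cdkn1a, an inhibitor of cyclin-dependent kinases, was 56.0 against 226 CPM, and Pmaip1, a promoter of apoptosis, was 258 against 146 CPM. On the list of cholesterol and lipid genes 1 of 17 was higher and 6 lower.

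Between ages, the gene that changed on the cholesterol and lipid list was Lpl, lipoprotein lipase, at 125 and 115 CPM in young and 42.4 and 69.9 CPM in aged cDC1 (log2 difference -1.08 ± 0.21 SE, edgeR adjusted p = 0.013). Its level in cDC1 was 8.46% of that in fibroblasts. Il1b stood at 93.4 and 85.1 CPM in young and 168 and 130 CPM in aged cDC1, which is 0.872% of its level in neutrophils (edgeR adjusted p = 0.0365). DESeq2 did not call Il1b (adjusted p = 0.14), nor did edgeR with members of high doublet score left out (0.198).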
